A study of Mus musculus with 12 samples.

Results

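Of the 19937 genes measured in mouse fetal liver blood cells, 52 were taken here for symbols of SNARE proteins and their helpers. The symbols are those of syntaxins (*Stx*), VAMPs, SNAP-25 relatives (*Snap*), syntaxin-binding proteins (*Stxbp*), synaptotagmin-like proteins (*Sytl*), Munc13 proteins (*Unc13*) and exocyst subunits (*Exoc*). Other genes of membrane fusion, further SNAREs among them, were counted apart. The 52 genes were taken by symbol alone, without regard to their values. Each is represented by the probe set of 1 symbol with the highest mean over all arrays. Megakaryocytes (MEG), erythroblasts (ERY) and hematopoietic stem and progenitor cells (HSPC) were each measured on 4 arrays, 1 per biological replicate, from livers of E14.5 embryos. MEG were grown from KIT-positive progenitors in culture with cytokines, in an expansion and then a maturation step, and were enriched with magnetic beads on CD41. ERY were pulled out of the liver by magnetic selection for Ter119, a surface antigen of the red cell lineage, and were not cultured. HSPC, deposited under the label HSC, were cells without lineage antigens (Ter119 and CD71 among those removed) sorted for Sca1, and were not cultured either. No mutation or drug distinguishes the populations, but MEG alone were cultured, so lineage and culture cannot be told apart in any comparison with MEG. The question was how the secretory machinery differs between each maturing lineage and the progenitors, and between the lineages themselves.

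Membrane fusion needs a SNARE on the vesicle, usually a VAMP, to wind together with syntaxin and SNAP-25-type SNAREs on the target membrane. Syntaxin-binding proteins of the Munc18 type hold and guide the syntaxin, Munc13 proteins prime the vesicle, synaptotagmin-like proteins link granules that carry the GTPase RAB27 to the membrane, and the exocyst tethers incoming vesicles before fusion. Megakaryocytes build the granules that platelets later release, and in platelets this release runs mainly through VAMP8, SNAP23 and STX11. Erythroblasts are not known for such granules, but they cycle transferrin receptors through endosomes and clear organelles by autophagy.

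Values are RMA log2 expression, so a difference of 1 is a 2-fold change. A gene was called higher or lower if it differed by more than 2-fold at an adjusted p under 0.05 (limma, Benjamini-Hochberg over all 19937 genes). As background served the level under which 95% of olfactory receptor genes lay, which was 6.09 in MEG, 5.98 in ERY and 5.64 in HSPC. Marker lists bore out the labels: array means of 9 MEG and platelet genes lay at 12.39 to 12.71 in MEG, 7.83 to 8.69 in ERY and 8.18 to 9.37 in HSPC, and those of 10 erythroid genes at 6.13 to 6.49, 12.25 to 12.42 and 7.08 to 7.92 in the same order. Markers of other cell types also differed between the populations. The means of 12 hepatocyte genes were 5.84 to 6.22 in MEG, 10.54 to 11.46 in ERY and 8.21 to 10.01 in HSPC, and 10 of them were lower in MEG than in HSPC while 11 were higher in ERY than in HSPC. The means of 12 macrophage genes were 5.96 to 7.12 in MEG, 7.37 to 8.14 in ERY and 6.22 to 6.63 in HSPC, with 7 higher in ERY than in HSPC. The means of 12 neutrophil and monocyte granule genes were 6.46 to 8.93 in MEG, 6.41 to 6.78 in ERY and 8.99 to 9.62 in HSPC. MEG array 3 was the highest MEG array of that list, with *Mpo* at 10.87 there against 5.63 to 8.01 on the other MEG arrays. HSPC arrays 3 and 4 stood apart from HSPC arrays 1 and 2, and 91.03% of the variance among the HSPC arrays lay on 1 axis. In bulk samples of this kind fewer cells of a type and less RNA per cell cannot be told apart, and the p-values measure the spread between these arrays.

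Many more of these genes were higher than lower in MEG, against either other population. Against HSPC, 19 of the 52 genes (36.5%) rose in MEG and 1 (1.92%) fell, where 8.77% of all genes rose and 11.4% fell. The median difference was 0.51 over the 52 genes and -0.02 over all genes. Centring the arrays on ribosomal protein genes raised both medians, to 1.05 over the 52 genes and 0.53 over all genes, and gave 27 of the 52 higher and 0 lower, where 20.4% of all genes were higher and 4.84% lower. Against ERY, 14 of the 52 (26.9%) were higher in MEG and 2 (3.85%) were lower, where 8.75% of all genes were higher and 7.77% were lower, and the medians were 0.46 and -0.02. ERY and HSPC differed less. In ERY 6 genes rose and 4 fell against HSPC (11.5% and 7.69%), with a median of 0.01 beside 0.03 for all genes, where 8.35% of all genes rose and 12.3% fell, so both shares were near the background. The same centring turned this last split into 13 higher and 2 lower, where 14.2% of all genes were higher and 7.25% lower.

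**Figure D1:**
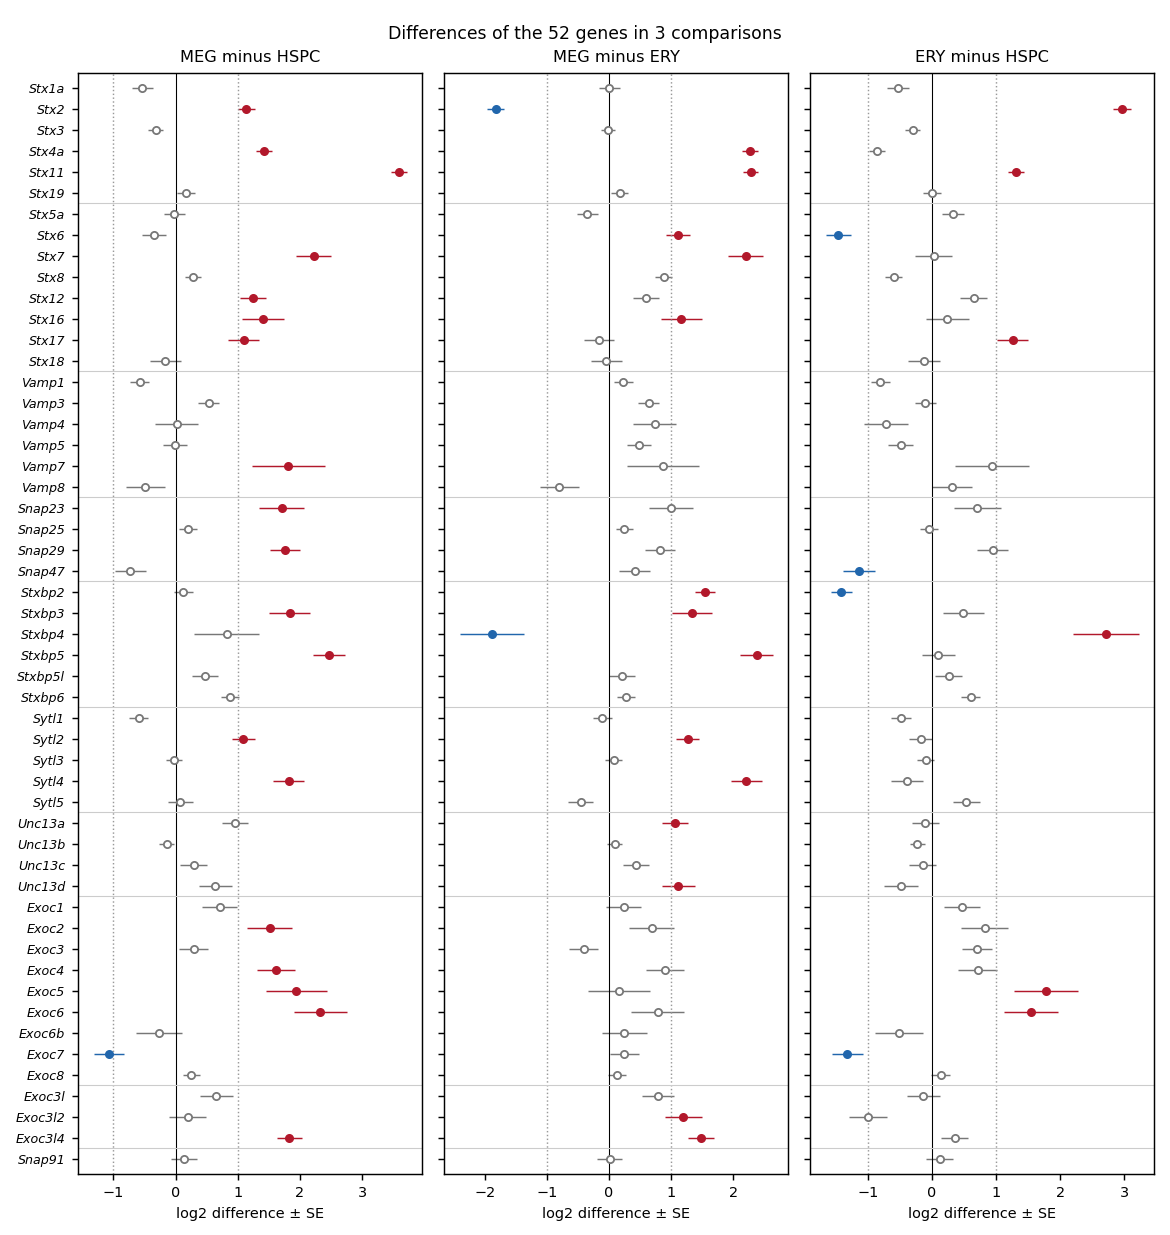
Log2 differences (x axis, bars are standard errors) of the 52 genes (rows) for MEG minus HSPC, MEG minus ERY and ERY minus HSPC. Filled red points are higher and filled blue points lower at over 2-fold and adjusted p under 0.05, open points are not called and dotted lines mark 2-fold; 19 genes are red in the left panel and 14 in the middle one.

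The 11 patterns over the 3 comparisons were led by genes without a call. The patterns were counted for the 52 genes only. Without the shares of all genes beside them, the counts do not show whether a pattern was more common here. Of the 52 genes, 25 were called in no comparison, among them 5 of the 6 VAMPs. A further 8 rose in MEG against both other populations and were not called between ERY and HSPC: *Stx4a*, *Stx7*, *Stx16*, *Stxbp3*, *Stxbp5*, *Sytl2*, *Sytl4* and *Exoc3l4*. Another 6 rose in MEG against HSPC only by call (*Stx12*, *Vamp7*, *Snap23*, *Snap29*, *Exoc2*, *Exoc4*), and 3 rose in both lineages (*Stx17*, *Exoc5*, *Exoc6*). *Stx11* and *Stx2* were the genes called in all 3 comparisons.

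The plasma membrane syntaxins diverged between the lineages. *Stx11*, the main syntaxin of platelet granule release, whose loss in humans causes familial hemophagocytic lymphohistiocytosis, stood at 10.96, 11.29, 11.05 and 10.77 on the MEG arrays, at 8.72, 8.80, 8.73 and 8.68 on the ERY arrays and at 7.48, 7.49, 7.40 and 7.33 on the HSPC arrays. The 3 populations were separate, MEG highest and HSPC lowest, and the HSPC arrays hardly differed among themselves. *Stx11* was 12-fold higher in MEG than in HSPC, a log2 difference of 3.59 (SE 0.12, adjusted p = 1.8e-09), which was the largest rise among the 52 genes. The difference was 1.31 between ERY and HSPC (adjusted p = 5.1e-06) and 2.28 between MEG and ERY (adjusted p = 2.4e-08). *Stx4a*, the mouse syntaxin 4 that also serves glucose transporter delivery in fat and muscle, was at 9.11, 8.92, 8.82 and 9.12 in MEG, at 6.87, 6.57, 6.67 and 6.76 in ERY and at 7.78, 7.63, 7.44 and 7.44 in HSPC. Here ERY, not HSPC, was the lowest population, and no arrays overlapped. The differences were 1.42 for MEG minus HSPC (SE 0.13, adjusted p = 6.1e-06), 2.28 for MEG minus ERY (adjusted p = 3.6e-08) and -0.86 for ERY minus HSPC, under 2-fold (adjusted p = 2.23e-04).

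*Stx2*, also known as epimorphin and present in platelets, had the opposite order of the lineages. Its levels were 9.51, 9.45, 9.66 and 9.35 on the MEG arrays, 11.36, 11.34, 11.23 and 11.35 on the ERY arrays and 8.58, 8.59, 8.18 and 8.07 on the HSPC arrays. ERY stood above every MEG array and MEG above every HSPC array. *Stx2* rose by 2.96 in ERY against HSPC, or 7.81-fold (SE 0.14, adjusted p = 1.3e-08), and by 1.14 in MEG against HSPC (adjusted p = 6.9e-05), and was lower in MEG than in ERY by a log2 difference of -1.83 (adjusted p = 6.8e-07). With HSPC arrays 1 and 2 alone the MEG rise was 0.91, under 2-fold. The hepatocyte and macrophage lists were also highest in ERY, and their part in the ERY level was not tested. The remaining plasma membrane syntaxins were near background: *Stx1a* and *Stx3*, syntaxins of neurons and of epithelial apical membranes, were above it only in HSPC, and *Stx19* in no population.

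**Figure D2:**
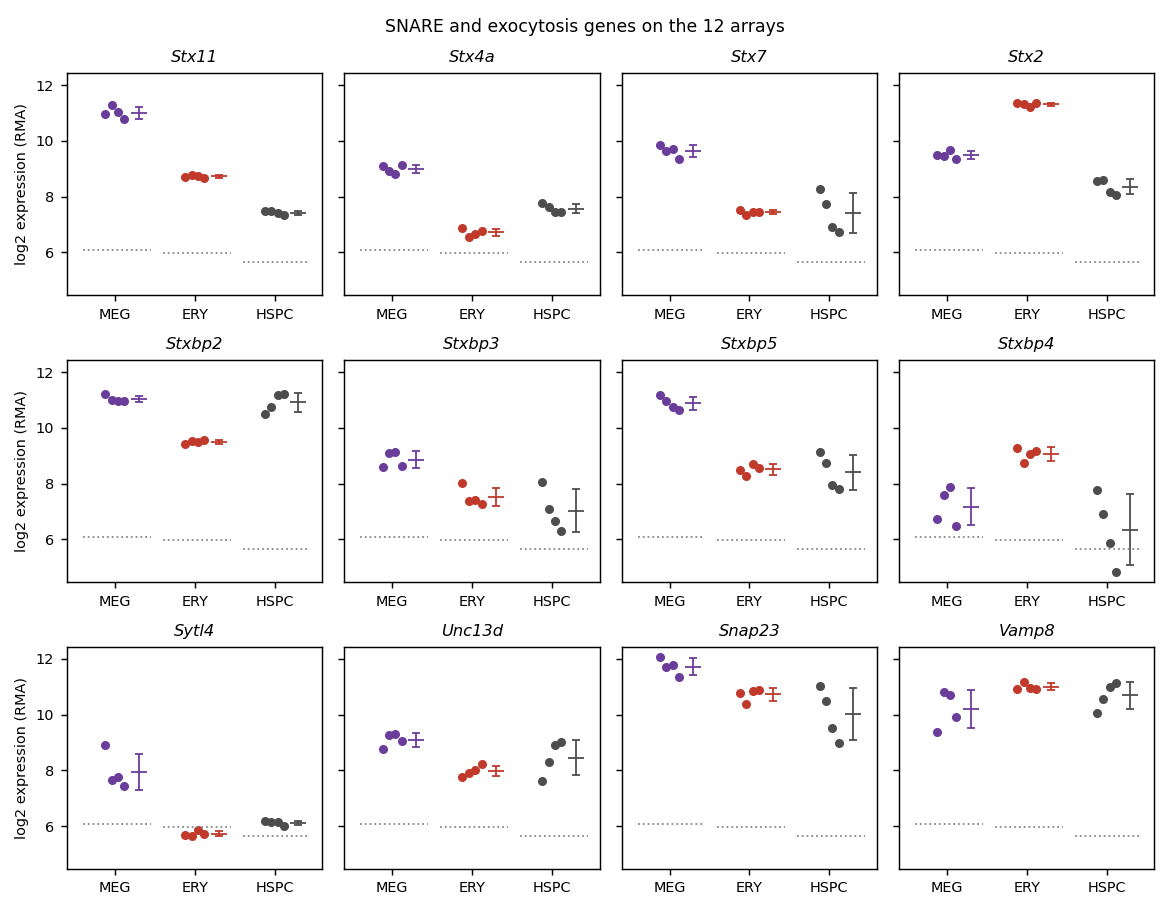
RMA log2 expression (y axis) of 12 of the genes on each array of MEG, ERY and HSPC; points are arrays, the bar beside them is the mean ± SD (n = 4) and the dotted line is the background of olfactory receptor genes. *Stx11*, *Stx4a*, *Stx7*, *Stxbp5* and *Sytl4* are highest in MEG, and *Stx2* and *Stxbp4* are highest in ERY.

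The upstream sequences of some of these syntaxins are given for their letters alone, and a link of the letters to expression was not tested. The 250 bases before the annotated start are given for the 3 plasma membrane syntaxins that were called, from RefSeq on the build GRCm38.p6, 5′ to 3′ along the gene, and for *Stx2* at the first of its 2 starts. Capitals mark GGAAG or its reverse complement CTTCC, the core recognised by ETS factors such as FLI1.
Stx11 promoter, chr10:12964260-12964509 (minus strand): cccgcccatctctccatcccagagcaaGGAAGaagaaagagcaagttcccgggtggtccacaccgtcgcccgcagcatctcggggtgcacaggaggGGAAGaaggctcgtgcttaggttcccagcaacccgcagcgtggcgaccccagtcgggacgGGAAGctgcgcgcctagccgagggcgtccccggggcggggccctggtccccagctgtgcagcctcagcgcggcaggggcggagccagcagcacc
Stx4a promoter, chr7:127841558-127841807 (plus strand): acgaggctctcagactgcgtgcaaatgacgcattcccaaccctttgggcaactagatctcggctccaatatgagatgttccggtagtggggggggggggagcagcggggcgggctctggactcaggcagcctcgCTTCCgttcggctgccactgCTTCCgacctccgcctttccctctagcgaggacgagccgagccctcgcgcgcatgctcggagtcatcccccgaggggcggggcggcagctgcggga
Stx2 promoter, chr5:129008573-129008822 (minus strand): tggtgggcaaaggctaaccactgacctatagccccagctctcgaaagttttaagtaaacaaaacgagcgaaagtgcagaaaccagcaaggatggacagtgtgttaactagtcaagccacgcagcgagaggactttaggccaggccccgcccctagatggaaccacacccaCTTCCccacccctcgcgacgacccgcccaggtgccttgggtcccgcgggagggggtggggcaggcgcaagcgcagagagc
GGAAG, on either strand, occurred 3 times before *Stx11*, 2 times before *Stx4a* and 1 time before *Stx2*. The letters are common, since 64.1% of 32851 promoters of this length hold them, as do 37 of 56 promoters of the 46 genes that matched (66.1%). These shares are for at least 1 copy, so they set no background for the counts of 3, 2 and 1. AGATAA, a motif of GATA factors likewise searched on both strands, was in none of the 3 windows, and occurred in 6 of the 56 (10.7%) beside 9.99% of all promoters.

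Among the proteins that hold and guide syntaxins, *Stxbp5* and *Stxbp3* rose in MEG and *Stxbp2* fell in ERY. *Stxbp5* encodes tomosyn, which binds syntaxin in place of a VAMP and modulates platelet secretion. It was at 11.16, 10.96, 10.75 and 10.66 in MEG, at 8.49, 8.25, 8.71 and 8.57 in ERY and at 9.12, 8.75, 7.96 and 7.81 in HSPC. All MEG arrays were above all others, while ERY and HSPC overlapped. The differences were 2.47 for MEG minus HSPC (SE 0.26, adjusted p = 1.9e-05), 2.38 for MEG minus ERY (adjusted p = 1.6e-05), with 0.10 for ERY minus HSPC, which was not called. *Stxbp2*, the Munc18 partner of STX11 and another gene of familial hemophagocytic lymphohistiocytosis, was at 11.21, 11.01, 10.97 and 10.96 in MEG, at 9.40, 9.53, 9.49 and 9.56 in ERY and at 10.50, 10.74, 11.19 and 11.20 in HSPC. MEG and HSPC overlapped, and ERY lay below both. *Stxbp2* fell by 1.41 in ERY against HSPC (adjusted p = 2.3e-05) and was higher in MEG than in ERY by 1.54 (adjusted p = 9.7e-06), with 0.13 between MEG and HSPC (adjusted p = 0.576).

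*Stxbp3*, the Munc18 partner of syntaxin 4, was at 8.58, 9.11, 9.12 and 8.62 in MEG, at 8.02, 7.37, 7.41 and 7.27 in ERY and at 8.06, 7.10, 6.65 and 6.29 in HSPC. MEG lay above both other populations, which overlapped. It rose by 1.83 in MEG against HSPC (SE 0.32, adjusted p = 8.39e-04) and was higher than in ERY by 1.34 (adjusted p = 0.00739). A second probe set is shared with the pseudogene *Stxbp3-ps*, so the signal of *Stxbp3* may include its transcripts. *Stxbp4*, or synip, a syntaxin 4 binding protein studied in insulin action, was at 6.73, 7.59, 7.87 and 6.48 in MEG, at 9.27, 8.72, 9.06 and 9.17 in ERY and at 7.76, 6.92, 5.87 and 4.83 in HSPC. ERY was above every other array, and the HSPC arrays alone spanned almost 3 log2 units. *Stxbp4* rose by 2.71 in ERY against HSPC (SE 0.52, adjusted p = 0.00129), and by 1.71 with HSPC arrays 1 and 2 alone (adjusted p = 0.0073). It was lower in MEG than in ERY by -1.89 (adjusted p = 0.0157), a call lost without MEG array 4 (adjusted p = 0.0525). A second probe set of the gene gave 2.19 and -1.50 for these differences. *Stxbp6*, or amisyn, differed from HSPC by 0.88 in MEG and 0.60 in ERY, both under 2-fold. With HSPC arrays 1 and 2 alone the MEG difference was a call, at 1.03 (adjusted p = 0.00138). *Stxbp5l* was below background throughout.

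The tether *Sytl4* was highest in MEG. *Sytl4* encodes granuphilin, which binds RAB27 on granules, and was at 8.90, 7.67, 7.76 and 7.44 in MEG, at 5.68, 5.65, 5.87 and 5.73 in ERY and at 6.19, 6.14, 6.15 and 6.01 in HSPC. MEG array 1 was the highest, no MEG array came near the others, and the ERY mean was below background. MEG minus HSPC was 1.82 (SE 0.25, adjusted p = 1.37e-04) and, without MEG array 1, 1.5. Against ERY, whose arrays were all below background, *Sytl4* was at least 3.91-fold higher in MEG (adjusted p = 2e-05). Such bounds set the mean of the higher population against the background level, or the array's own value where that was higher. *Sytl2* was called higher in MEG in both comparisons, but its means were below background in all 3 populations, so no size is given. *Sytl1* was at 6.19 to 6.51 in MEG and 6.62 to 7.25 in HSPC, a difference of -0.59 (adjusted p = 0.00978), and *Sytl3* and *Sytl5* were below background.

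Of the Munc13 proteins, *Unc13d* is the one that primes platelet and lymphocyte granules, and it too is mutated in familial hemophagocytic lymphohistiocytosis. It was at 8.75, 9.27, 9.31 and 9.05 in MEG, at 7.77, 7.92, 8.0 and 8.23 in ERY and at 7.63, 8.31, 8.90 and 9.01 in HSPC. MEG was above all ERY arrays and overlapped with HSPC. It was higher in MEG than in ERY by 1.12 (SE 0.27, adjusted p = 0.00679), while MEG minus HSPC was 0.64 (adjusted p = 0.0847) and ERY minus HSPC was -0.48 (adjusted p = 0.21). With HSPC arrays 1 and 2 alone, MEG minus HSPC was a call, at 1.13 (adjusted p = 0.00477). With HSPC arrays 3 and 4 alone it was 0.14 (adjusted p = 0.565). The neutrophil and monocyte list, whose cells use *Stxbp2* and *Unc13d* too, was highest in HSPC, and its part in these levels was not tested. *Unc13a*, known from synapses, was called between MEG and ERY at 1.06 (adjusted p = 0.00191), but its other 2 probe sets gave 0.05 and 0.37. Against HSPC arrays 1 and 2 alone, its first probe set was also called higher in MEG, at 1.19 (adjusted p = 0.00555). *Unc13b* and *Unc13c* were called in no comparison.

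Of the 6 VAMPs, 1 was called, and in 1 comparison, as higher in MEG than in HSPC, where 8.77% of all genes were higher. *Vamp8*, the chief granule SNARE of mouse platelets, was at 9.38, 10.82, 10.70 and 9.92 in MEG, at 10.93, 11.19, 10.95 and 10.94 in ERY and at 10.05, 10.57, 11.00 and 11.12 in HSPC. It was high everywhere, and every MEG array lay below every ERY array. MEG minus HSPC was -0.49 (SE 0.31, adjusted p = 0.251), MEG minus ERY -0.80 (adjusted p = 0.0801) and ERY minus HSPC 0.32 (adjusted p = 0.509). *Vamp3*, or cellubrevin, a SNARE of recycling endosomes, was at 10.37 to 10.82 in MEG, 9.87 to 10.08 in ERY and 9.69 to 10.40 in HSPC, and its MEG minus HSPC difference of 0.54 (adjusted p = 0.0277) was under 2-fold. *Vamp7*, a SNARE of late endosomes and lysosomes, was the VAMP that was called. It was at 10.03, 10.41, 10.47 and 9.62 in MEG, at 9.54, 8.83, 9.44 and 9.23 in ERY and at 10.17, 8.96, 7.48 and 6.66 in HSPC. The MEG arrays overlapped with HSPC array 1. Its rise of 1.82 in MEG against HSPC (SE 0.58, adjusted p = 0.0289) was lost without HSPC array 3 or 4 or MEG array 2 or 3, and was 0.57 with HSPC arrays 1 and 2 alone (adjusted p = 0.262). *Vamp1*, *Vamp4* and *Vamp5* differed between MEG and HSPC by -0.58, 0.02 and -0.01.

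Of the SNAP-25 relatives, *Snap23* and *Snap29* rose in MEG. *Snap23*, the platelet member of the family, was at 12.07, 11.71, 11.77 and 11.34 in MEG, at 10.78, 10.39, 10.83 and 10.89 in ERY and at 11.03, 10.51, 9.53 and 8.99 in HSPC. MEG was above both, and the HSPC arrays spread over more than 2 log2 units. It rose by 1.71 against HSPC (SE 0.36, adjusted p = 0.00275), or by 0.95, under 2-fold, with HSPC arrays 1 and 2 alone, and MEG minus ERY was 1.0, just under 2-fold (adjusted p = 0.0617). *Snap29*, which pairs with syntaxin 17 on autophagosomes, was at 9.34 to 10.14 in MEG, 8.88 to 9.07 in ERY and 7.48 to 8.65 in HSPC. Its MEG rise of 1.76 (adjusted p = 1.35e-04) remained at 1.33 with HSPC arrays 1 and 2 alone (adjusted p = 0.00119). *Snap47* was at 7.93, 8.64, 8.60 and 8.10 in MEG, at 7.73, 7.86, 7.92 and 8.10 in ERY and at 8.33, 8.92, 9.53 and 9.41 in HSPC. ERY lay below HSPC and overlapped with MEG. *Snap47* fell by 1.14 in ERY against HSPC (adjusted p = 0.00344), a call lost without HSPC array 3, with HSPC arrays 1 and 2 alone or with centring on ribosomal protein genes. The neuronal *Snap25* was near background in every population, and *Snap91*, a clathrin assembly protein that shares only the symbol, was called nowhere.

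Of the 8 syntaxins of inner membranes, 4 rose in MEG against HSPC (8.77% of all genes did). With HSPC arrays 1 and 2 alone, 1 did so (5.4% of all genes). In ERY 1 rose and 1 fell, near the 8.35% and 12.3% of all genes. *Stx7*, which fuses late endosomes and lysosomes, was at 9.86, 9.66, 9.71 and 9.34 in MEG, at 7.54, 7.34, 7.45 and 7.45 in ERY and at 8.29, 7.75, 6.92 and 6.72 in HSPC. MEG stood above all other arrays, and ERY lay within the HSPC range. It was 2.22 higher in MEG than in HSPC (SE 0.28, adjusted p = 8.3e-05) and 2.20 higher than in ERY (adjusted p = 6.5e-05), with 1.62 against HSPC arrays 1 and 2 alone. *Stx8*, which acts in the same late endosomal complex, was 0.88 higher in MEG than in ERY, under 2-fold (adjusted p = 2.24e-04). *Stx12*, of recycling endosomes, and *Stx16*, of the trans-Golgi network, rose in MEG against HSPC by 1.24 and 1.40, and both were under 2-fold with HSPC arrays 1 and 2 alone, at 0.85 and 0.83. *Stx16* was also higher in MEG than in ERY by 1.16 (adjusted p = 0.0202), a call lost without ERY array 2 or MEG array 1.

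*Stx6*, another trans-Golgi syntaxin, was at 8.70, 8.35, 8.38 and 8.07 in MEG, at 7.35, 7.09, 7.28 and 7.33 in ERY and at 8.18, 8.65, 8.95 and 9.11 in HSPC. ERY was below both others, which overlapped. It fell by 1.46 in ERY against HSPC (SE 0.20, adjusted p = 9.1e-05) and was 1.12 higher in MEG than in ERY (adjusted p = 7.99e-04). *Stx17*, the syntaxin of autophagosomes, was at 8.70, 8.92, 8.86 and 8.39 in MEG, at 8.85, 8.56, 9.08 and 9.05 in ERY and at 8.36, 7.72, 7.26 and 7.16 in HSPC. MEG and ERY overlapped and both lay above HSPC. It rose by 1.09 in MEG (adjusted p = 0.00389) and by 1.26 in ERY (adjusted p = 0.00143), and both were under 2-fold with HSPC arrays 1 and 2 alone, at 0.68 and 0.84. The MEG call was also lost without HSPC array 3 or 4. *Stx5a* and *Stx18*, of the Golgi and the endoplasmic reticulum, were called in no comparison.

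Of the 9 exocyst subunits, several were called against HSPC and none between the lineages. None of the 9 was called between MEG and ERY, with differences between -0.41 and 0.90. Of these only that of *Exoc4* (0.90) had an adjusted p under 0.05, at 0.0447. These p-values use a spread shared with the HSPC arrays, whose SD for *Exoc6* was 1.13 beside 0.35 in MEG and 0.18 in ERY. Every MEG array lay above every ERY array for *Exoc2*, *Exoc4* and *Exoc6*, while MEG and ERY arrays of the other subunits overlapped. Against HSPC, 4 of 9 rose and 1 fell in MEG, and 2 rose and 1 fell in ERY, beside the shares of all genes given above (8.77% and 11.4% in MEG, 8.35% and 12.3% in ERY). With HSPC arrays 1 and 2 alone, 2 rose in MEG and 0 in ERY, where 5.4% and 5.86% of all genes rose. With HSPC arrays 3 and 4 alone, 5 rose in MEG and 6 in ERY, where 12.7% and 12.3% of all genes rose. *Exoc6*, the SEC15 subunit whose mutation impairs transferrin cycling and causes anemia in hemoglobin-deficit mice, was at 11.09, 10.56, 10.60 and 10.24 in MEG, at 10.01, 9.60, 9.94 and 9.82 in ERY and at 9.60, 8.80, 7.72 and 7.06 in HSPC. MEG was above all HSPC arrays, and the lowest ERY array met the highest HSPC array. *Exoc6* rose by 2.33 in MEG (SE 0.43, adjusted p = 0.00108) and by 1.55 in ERY (adjusted p = 0.0135). With HSPC arrays 1 and 2 alone these were 1.42 (adjusted p = 0.00318) and 0.64 (adjusted p = 0.1), and the ERY call was lost.

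*Exoc5*, the SEC10 subunit, was at 8.35, 9.03, 8.87 and 8.10 in MEG, at 8.48, 8.17, 8.70 and 8.35 in ERY and at 8.19, 7.25, 5.73 and 5.41 in HSPC. HSPC array 1 was above the lowest array of either lineage, and HSPC arrays 3 and 4 were near background. The rises of 1.94 in MEG (adjusted p = 0.00873) and 1.78 in ERY (adjusted p = 0.014) were 0.87 (adjusted p = 0.0686) and 0.71 (adjusted p = 0.123) with HSPC arrays 1 and 2 alone. *Exoc2*, the SEC5 subunit that binds RAL GTPases, was at 10.74, 10.02, 9.99 and 9.71 in MEG, at 9.48, 9.40, 9.46 and 9.37 in ERY and at 9.66, 9.01, 8.12 and 7.63 in HSPC. Its lowest MEG array barely cleared HSPC array 1. The MEG rise was 1.51 (adjusted p = 0.00623), or 0.78 with HSPC arrays 1 and 2 alone (adjusted p = 0.0553). *Exoc4*, or SEC8, was at 10.72, 9.69, 9.52 and 9.35 in MEG, at 8.93, 8.89, 8.95 and 8.89 in ERY and at 8.87, 8.45, 7.80 and 7.70 in HSPC. Its MEG rise of 1.62 (adjusted p = 0.00126) remained a call with HSPC arrays 1 and 2 alone, at 1.16 (adjusted p = 0.0228).

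*Exoc7*, the EXO70 subunit that binds the inner face of the plasma membrane, went the other way. It was at 7.93, 7.77, 7.82 and 7.31 in MEG, at 7.49, 7.49, 7.38 and 7.48 in ERY and at 7.97, 8.89, 8.97 and 9.31 in HSPC. All HSPC arrays were above all others, HSPC array 1 by little. *Exoc7* fell by 1.08 in MEG (adjusted p = 0.004) and by 1.32 in ERY (adjusted p = 9.14e-04), and both falls were under 2-fold with HSPC arrays 1 and 2 alone, at -0.72 and -0.97. Both calls were lost with centring on ribosomal protein genes too, and the MEG call without HSPC array 4 or MEG array 4. *Exoc1*, *Exoc3* and *Exoc8* were not called. Their MEG minus HSPC differences were 0.71, 0.30 and 0.26, and their ERY minus HSPC differences were 0.47, 0.71 and 0.13. *Exoc6b*, a paralog of *Exoc6*, was at 6.53 to 8.11 in MEG, 6.80 to 7.20 in ERY and 6.77 to 8.29 in HSPC. Of the genes named for likeness to *Exoc3*, *Exoc3l4* rose by 1.83 in MEG against HSPC (adjusted p = 3.1e-05) and was 1.48 higher than in ERY (adjusted p = 1.19e-04). *Exoc3l2* was called only between MEG and ERY, at 1.19 (adjusted p = 0.00906), and *Exoc3l* in no comparison. With HSPC arrays 1 and 2 alone, *Exoc3l* was called higher in MEG, at 1.03 (adjusted p = 0.0208).

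**Figure D3:**
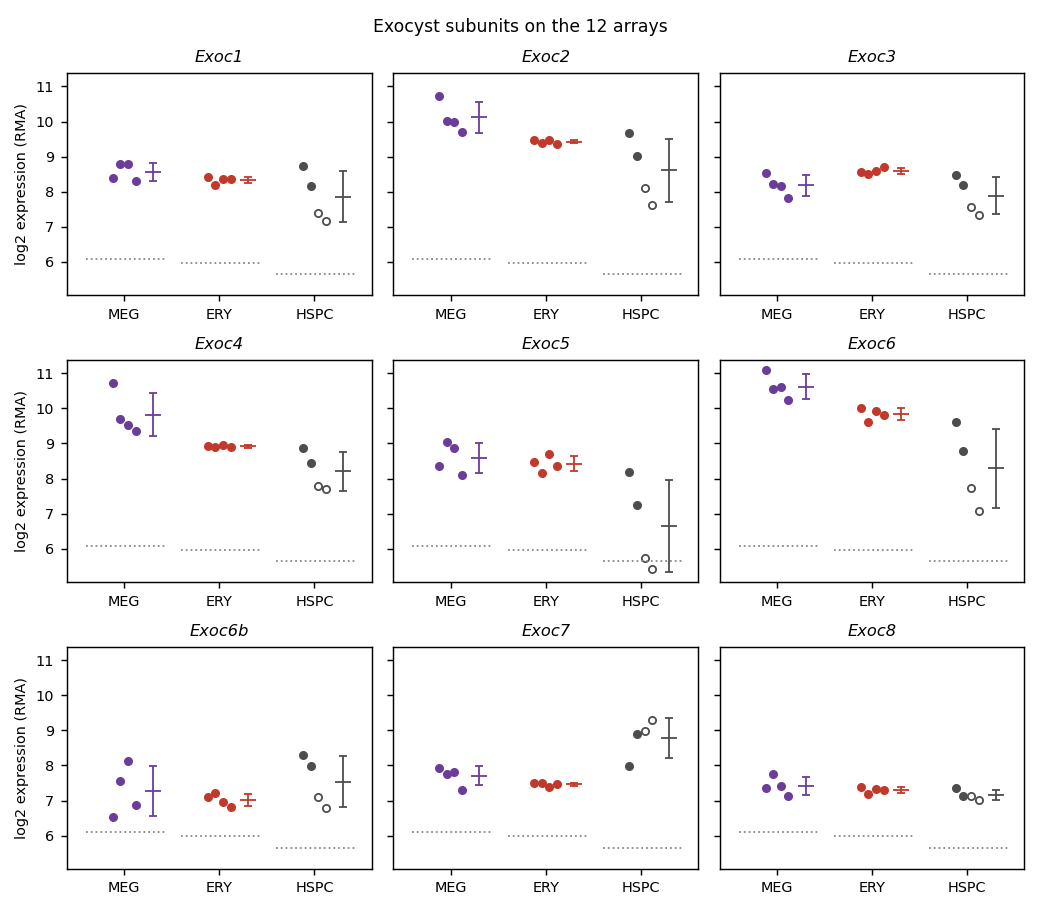
RMA log2 expression (y axis) of the 9 exocyst subunits on the MEG, ERY and HSPC arrays; points are arrays, with HSPC arrays 1 and 2 filled and 3 and 4 open, the bar is the mean ± SD (n = 4) and the dotted line the background. The open HSPC points lie below the filled ones for 8 of the 9 subunits, and above them for *Exoc7*.

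The split of the HSPC arrays ran through these genes. HSPC arrays 3 and 4 were both below arrays 1 and 2 for 27 of the 52 genes (51.9%) beside 26.3% of all genes, and both above them for 21 (40.4%) beside 54.4%. The mean of arrays 3 and 4 lay more than 1 below that of arrays 1 and 2 for 13 genes (25%) beside 10.7% of all genes, from -2.50 for *Vamp7* to 0.99 for *Unc13d* at the other end. The median SD of the 52 genes was 0.298 in MEG, 0.116 in ERY and 0.364 in HSPC, beside 0.279, 0.145 and 0.259 for all genes. With HSPC arrays 1 and 2 alone, 14 genes rose in MEG (5.4% of all genes did), 10 of them among the 19 and *Stxbp6*, *Unc13a*, *Unc13d* and *Exoc3l* in addition. With HSPC arrays 3 and 4 alone, 21 rose, all 19 among them (12.7% of all genes). In ERY 3 rose with HSPC arrays 1 and 2 alone (5.86% of all genes) and 15 with arrays 3 and 4 alone (12.3%). The labels give no reason for the split. The comparison of MEG with ERY uses the HSPC arrays only for the shared estimate of the spread.

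**Figure D4:**
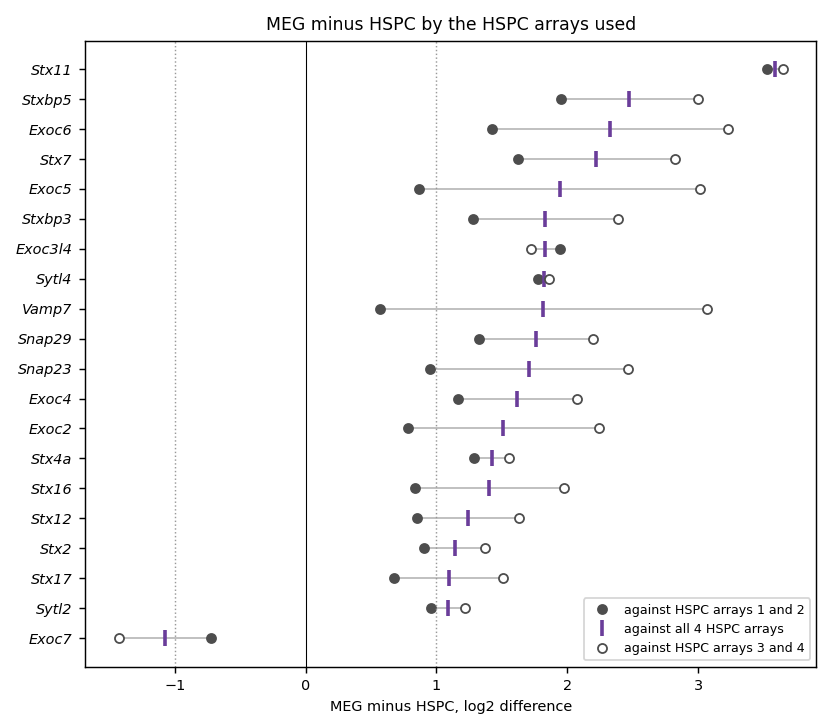
Log2 difference MEG minus HSPC (x axis) of the 20 called genes (rows) against HSPC arrays 1 and 2 (filled), all 4 HSPC arrays (bar) and HSPC arrays 3 and 4 (open). *Stx11* hardly moves, at 3.53 and 3.65, while *Vamp7* moves between 0.57 and 3.07.

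Most of the 52 genes were above background in every population. Above background were 44 of the 52 genes in MEG, 42 in ERY and 47 in HSPC, and 42 in all 3. In at least 1 population 47 of the 52 were above it, beside 13443 of all 19937 genes. In none were *Stx19*, *Stxbp5l*, *Sytl2*, *Sytl3* and *Sytl5*, and *Stx1a*, *Stx3*, *Snap25*, *Sytl4* and *Unc13c* were above it in 1 or 2 populations.

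Other genes of membrane fusion, 44 in all and none of them among the 52, were listed with earlier results of these data known. Their shares are therefore not a separate check. The 44 gave 12 higher (27.3%) and 1 lower (2.27%) in MEG against HSPC, with a median of 0.04, beside 8.77% and 11.4% of all genes. With HSPC arrays 1 and 2 alone, 5 were higher (11.4%), beside 5.4% of all genes. Against ERY, 10 were higher (22.7%) and 1 lower (2.27%) in MEG, with a median of 0.21, beside 8.75% and 7.77%. In ERY 2 were higher (4.55%) and 7 lower (15.9%) than in HSPC, with a median of -0.12, near the 8.35% and 12.3% of all genes. *Rab27b*, the GTPase that SYTL4 binds on platelet granules, was at 11.79, 11.93, 11.83 and 11.93 in MEG, at 5.98, 6.18, 5.78 and 5.80 in ERY and at 6.71, 6.83, 6.16 and 6.12 in HSPC. MEG stood far above both, by 5.41 against HSPC (adjusted p = 8.2e-10) and, since the ERY mean was not above background, at least 57.3-fold against ERY (adjusted p = 1.9e-10). Its paralog *Rab27a*, whose ERY mean was not above background either, was at least 14.9-fold higher in MEG than in ERY (adjusted p = 7.2e-07) and at least 5.04-fold lower in ERY than in HSPC (adjusted p = 6.1e-05). *Syt11*, a synaptotagmin that does not bind calcium, was not above background in ERY or HSPC. It was at least 7.67-fold higher in MEG than in HSPC (adjusted p = 6.9e-08) and at least 6.09-fold higher than in ERY (adjusted p = 9.7e-09). *Lyst*, mutated in Chediak-Higashi syndrome with its giant lysosomes, rose by 2.02 in MEG against HSPC (adjusted p = 0.00896), with overlapping arrays. That call was lost with HSPC arrays 1 and 2 alone, at 0.99 (adjusted p = 0.102). Against ERY, *Lyst* was 2.35 higher in MEG (adjusted p = 0.00401), and no arrays overlapped.

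*Nbeal2*, mutated in gray platelet syndrome and needed for alpha granules, was at 10.05, 10.00, 9.76 and 9.84 in MEG, at 6.48, 6.94, 6.69 and 6.87 in ERY and at 8.59, 9.30, 10.08 and 10.32 in HSPC. MEG and HSPC overlapped, and ERY was below both. *Nbeal2* fell by 2.83 in ERY against HSPC (adjusted p = 1.5e-05). *Rab8b*, a GTPase of vesicle transport to the cell surface, rose against HSPC in both lineages, by 2.02 in ERY and 1.98 in MEG. With HSPC arrays 1 and 2 alone the rises were 1.25 (adjusted p = 0.00782) and 1.21 (adjusted p = 0.0111). *Scfd1*, the syntaxin partner between endoplasmic reticulum and Golgi, rose by 1.20 in ERY (adjusted p = 0.0383) and by 1.49 in MEG (adjusted p = 0.013). Arrays overlapped in both comparisons. The ERY call was lost without any 1 ERY array, without HSPC array 3 or 4, and when only the 8 arrays of both populations were fitted. With HSPC arrays 1 and 2 alone both calls of *Scfd1* were lost, at 0.33 in ERY and 0.62 in MEG. *Rab3d*, a GTPase of secretory granules, fell by 1.91 in ERY and by 1.07 in MEG. The MEG call was lost without HSPC array 4 or MEG array 4, with HSPC arrays 1 and 2 alone (-0.74), when only the 8 arrays of both populations were fitted, and with centring on ribosomal protein genes. *Napa*, whose product recruits the ATPase NSF to spent SNARE complexes, was the 1 gene lower in MEG than in ERY, by -1.54.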

How the data were processed

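Expression was read on 12 GeneChip Mouse Gene ST arrays, with 4 biological replicates each of MEG, ERY and HSPC. RMA, whose version is not given in the sources used here, was run by the authors, and the deposited values are its log2 summaries of each probe set. Median values of single arrays were 5.99 to 6.25. No intensities were used, so the number of arrays limits the precision. The table has 34760 probe sets. Those with 1 gene symbol (21640) were used, and those with several (1321) or outside the platform annotation (11799) were not. They cover 19937 genes, of which 954 have more than 1 probe set.

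All 12 arrays entered 1 limma fit (version 3.58.1, R 4.3.3) with a mean for each population, without a filter on low values, and p-values were adjusted over all genes by Benjamini-Hochberg. The thresholds (2-fold, FDR of 5%) are those of the study's methods. The fit was tested on simulated data. Other software was Python 3.11.15 with numpy 2.4.6, pandas 2.3.3 and, for drawing, matplotlib 3.10.9. The genes and lists were chosen with earlier results of these data known. Values on every array were given for the 6 called genes with the largest change each way per comparison. The same holds for most genes known for platelet granule release and most exocyst subunits. Some genes without a call have ranges instead. *Exoc1*, *Exoc3*, *Exoc8* and the other members are given mostly by differences. Of other fusion genes, the 3 largest changes each way were named. Same-numbered arrays were not treated as pairs, and the labels do not say whether they share a source. Of 12 such pairs, 4 correlated above 0.1. Arrays of different number reached 0.415 (ERY array 2 and MEG array 4), so these correlations cannot decide whether arrays pair. Alternatives were leaving out each array, the replicate block, only the 8 arrays compared, HSPC arrays 1 and 2 or 3 and 4 alone, genes above background, quantile normalization, centring on 55 ribosomal protein genes, averaging the probe sets of a gene, limma's trend with robust variance, and a test against 2-fold (treat). *Vamp2*, seen only on a shared probe set, was left out of the counts.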

Additional observations from a re-analysis of the deposited data

Results flagged for a closer look

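*Vamp8* on ERY array 2 was at 11.19, apart from 10.93, 10.95 and 10.94 on the other ERY arrays. It was 1 of 75 groups of 4 arrays examined, and chance gives about 1 in 20. By a limma test of MEG against ERY, the changes from HSPC differed between the lineages for 11 of the 25 named genes. This repeats the comparison of MEG with ERY given above. Genes were named partly for the size of their call in it, so the count of 11 is not a separate result. Of all 52 genes, 14 were higher and 2 lower in MEG, beside 8.75% and 7.77% of all genes. The change in MEG minus that in ERY was 2.28 for *Stx11*, 2.28 for *Stx4a*, 2.20 for *Stx7*, 1.12 for *Stx6* and -1.83 for *Stx2*. It was 2.38 for *Stxbp5*, 1.54 for *Stxbp2*, 1.34 for *Stxbp3* and -1.89 for *Stxbp4*. It was 2.21 for *Sytl4*, whose ERY arrays were below background, and 1.12 for *Unc13d*.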

How the results depend on the processing

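Of 1650 values of named genes under the alternatives, 1548 kept their direction and their side of the thresholds, 50 lost a call and 29 gained one. The other 23 were called in neither setting and changed sign, among them *Stx7* and *Stxbp5* in ERY against HSPC and *Stx6*, *Vamp8*, *Stxbp2* and *Stxbp4* in MEG against HSPC. No called value changed sign. With HSPC arrays 1 and 2 only, MEG against HSPC had 0 genes lower and 5 other fusion genes called, against 13 with all arrays, and ERY against HSPC had 3 higher. With HSPC arrays 3 and 4 only, the counts were 2 lower in MEG, 15 higher in ERY and 14 other fusion genes called in ERY, against 9. Centring on ribosomal protein genes moved MEG minus HSPC by 0.544, ERY minus HSPC by 0.401 and MEG minus ERY by 0.143. It gave 0 lower in MEG against HSPC, and 13 higher and 2 lower in ERY against HSPC. Testing against 2-fold itself (treat) left 4 higher and 0 lower in MEG against HSPC, 2 higher and 0 lower in ERY against HSPC, 6 higher and 1 lower in MEG against ERY, and 3, 2 and 4 other fusion genes in these comparisons. Leaving out 1 array at a time gave 17 to 20 higher and 0 to 1 lower in MEG against HSPC, 6 to 10 higher and 3 to 5 lower in ERY against HSPC (10 without HSPC array 1), and 13 to 15 higher and 1 to 3 lower in MEG against ERY (1 without MEG array 4). The other fusion genes called ranged from 11 to 15, 6 to 10 and 10 to 12. The replicate block left the counts of the 52 genes at 19 and 1, 6 and 4, and 14 and 2. In every alternative run, *Stx11*, *Stx7*, *Stxbp5* and *Exoc3l4* stayed higher in MEG than in HSPC, *Stx2* and *Stxbp4* higher in ERY than in HSPC, and *Stx4a*, *Stx11*, *Stx7*, *Stxbp2*, *Stxbp5* and *Sytl4* higher in MEG than in ERY. The cause of the other changes was not tested.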

Other observations

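*Vamp2*, a platelet granule SNARE, is read here only by a probe set that also lists *Ubr3*. That probe set averaged 10.6 ± 0.458 in MEG, 9.94 ± 0.162 in ERY and 9.92 ± 0.522 in HSPC (SD, n = 4 each). The probe set that lists both *Stxbp3* and *Stxbp3-ps* averaged 9.07 ± 0.206 in MEG, 7.77 ± 0.368 in ERY and 6.87 ± 0.827 in HSPC (SD, n = 4 each).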
